A study of Sus scrofa domesticus with 36 samples.

Results

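The libraries described here are the subcutaneous backfat libraries with the most and the least OAS2 RNA among 18 young pigs. OAS2 (ENSSSCG00000009881) encodes an interferon-induced enzyme that makes a small messenger molecule when it meets double-stranded RNA. Libraries were selected on a measured value: OAS2 CPM, the count of a gene scaled by the library total, was computed from the gene counts of each of the 18 backfat libraries, and the 6 highest and the 6 lowest libraries were set against each other. These 12 of the 36 libraries of the series are called the high-OAS2 and the low-OAS2 set, and the 6 backfat libraries between them are given where they show a gradient. The sets are a ranking of animals and not a treatment, and OAS2 in backfat is left out of every test.

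The growth protocol gives all pigs as a commercial cross of Danbred 600 with Newsham NC32, while the number after NC in the breed label differs from sample to sample. The pigs had been weaned and moved to a commercial barn, and the labels name no treatment in either set. The labels give an age of 16-17 days and the stage weaning, while the design text gives 3 weeks after weaning. The 18 pigs were 9 slow growers and 9 faster growers out of 1054, picked as pairs matched on litter size and sow parity. The growth class and the pair of a pig are not in the labels used here, so neither could be set against OAS2 or entered in a fit. Backfat and longissimus dorsi muscle were taken from each pig after captive-bolt stunning and exsanguination, and each tissue of a pig gave 1 library, named here by its pig as in the labels (Sample_231 and so on; figures show the number alone).

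Type I interferons are secreted proteins that cells make when sensors such as RIG-I detect viral nucleic acid. They bind a receptor on neighbouring cells, JAK kinases then activate factors such as STAT2, which joins IRF9 to switch on a large group of antiviral genes that includes OAS2, MX1 and the IFIT genes. Adipocytes, macrophages, endothelial cells and lymphocytes of fat can all respond to interferon. In whole tissue, fewer cells of a type and less RNA per cell cannot be told apart.

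Gene counts per library ran from 4049651 to 5254538 in the high-OAS2 set and from 2990913 to 5003267 in the low-OAS2 set. Counts outside annotated genes were 29.3% to 37.7% of the totals in the high-OAS2 set and 28.2% to 53.8% in the low-OAS2 set. The shallowest library with the largest share outside genes was that of pig Sample_656 in the low-OAS2 set. Adipocyte genes were present in all 12 libraries: PLIN1, which coats the lipid droplet, was at 536 to 887 CPM in the high-OAS2 set and 460 to 1115 CPM in the low-OAS2 set. Skeletal muscle RNA varied widely, with 6 muscle genes summing to 316 to 17815 CPM in the high-OAS2 set and 184 to 39856 CPM in the low-OAS2 set. Pig Sample_731 of the low-OAS2 set had the most, with 27950 CPM of the muscle actin ACTA1. Apart from the OAS2 values that set the ranking, CPM values here were divided by each library's trimmed-mean factor, and a log2 difference is the high-OAS2 minus the low-OAS2 set. Levels in threes are the lowest, the median and the highest library of a set.

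In backfat, OAS2 was at 1399, 1281, 1275, 1178.5, 1143 and 1119 CPM in pigs Sample_231, Sample_186, Sample_242, Sample_911, Sample_391 and Sample_176 of the high-OAS2 set. It was at 827, 765, 556, 385, 343 and 284 CPM in pigs Sample_659, Sample_656, Sample_491, Sample_731, Sample_889 and Sample_991 of the low-OAS2 set. The high-OAS2 set thus lay within a narrow band, whereas the low-OAS2 set held 4 libraries that fell away from the rest and 2 that lay close to the libraries in between. The means were 1233 ± 106 CPM in the high-OAS2 set and 527 ± 228 CPM in the low-OAS2 set (SD, n = 6 each), and the highest library had 4.93 times the OAS2 of the lowest. The borders of the sets fell in a continuous range. Pig Sample_176, the lowest of the high-OAS2 set, had 1119 CPM with a 95% exact Poisson interval of 1089 to 1149, and pig Sample_572, just outside, had 1115 CPM (1087 to 1144). At the lower border pig Sample_659, inside the low-OAS2 set, had 827 CPM (802 to 853) and pig Sample_735, just outside, had 861 CPM (834 to 888.5). These intervals cover counting error only.

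**Figure D1:**
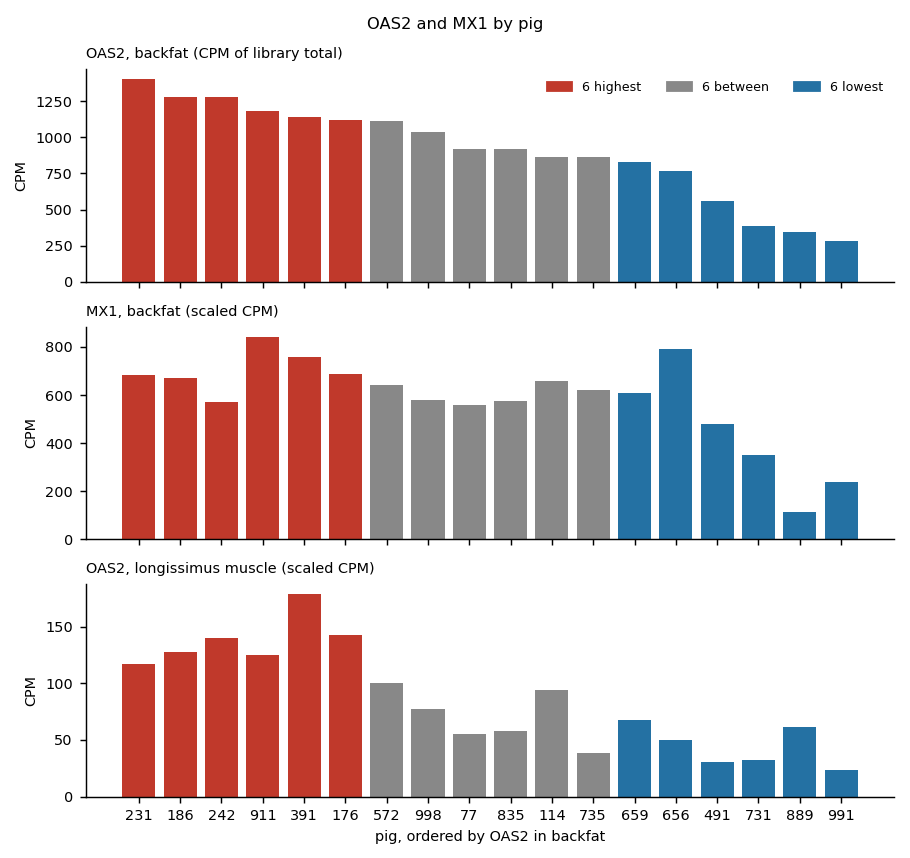
OAS2 in backfat, MX1 in backfat and OAS2 in longissimus muscle (vertical axes in CPM), with 1 bar per pig ordered by backfat OAS2; red bars are the 6 highest, grey the 6 between and blue the 6 lowest libraries. OAS2 was lowest in the last 4 pigs (556 to 284 CPM), and MX1 was low in the same pigs but not in pigs Sample_659 and Sample_656.

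MX1, which encodes a GTPase that traps viral ribonucleoproteins, was the other interferon gene given as a marker of these libraries. It was at 569 CPM at the lowest, 686 at the median and 843 at the highest in the high-OAS2 set, and at 113.98, 416 and 791 CPM in the low-OAS2 set. The sets overlapped, because pigs Sample_656 and Sample_659 of the low-OAS2 set had 791 and 608 CPM, while pigs Sample_889 and Sample_991 had 113.98 and 236 CPM. The log2 difference was 0.70 (SE 0.35) and MX1 did not pass the test between the sets (adjusted p = 0.976, edgeR quasi-likelihood test).

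Between the sets, 0 of 12924 backfat genes were higher and 0 were lower at an adjusted p under 0.05 in edgeR (0.0% called in each direction). At an unadjusted p under 0.05 there were 566 genes, 4.38% of those tested, of which 255 were higher and 311 lower. DESeq2 called 5 genes higher (0.0387%) and 1 lower (0.00774%). With symbols, these were SIGLEC1, ARRDC4 and TRANK1, which were higher, and MZB1, which was lower. Of the genes in the lists described below, these are SIGLEC1 and MZB1. Every high-OAS2 library lay above every low-OAS2 library for 10 genes (0.0774%) and below for 3 genes (0.0232%). Of the 924 splits of 12 libraries into sets of 6, 1 separates a given gene in a given direction. These shares are thus not above what random splits give. Over all tested genes the median log2 difference was -0.02, with 46.8% of genes above 0.

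SIGLEC1, a sialic-acid binding receptor of macrophages that interferon induces, had the smallest p in backfat among the genes with a symbol. It was at 75.5, 102 and 163 CPM (lowest, median and highest) in the high-OAS2 set and at 30.5, 37.6 and 69.8 CPM in the low-OAS2 set. The sets did not overlap, with pig Sample_491 the highest of the low-OAS2 set. The log2 difference was 1.403 (SE 0.259), with an adjusted p of 0.976 in edgeR and 0.00137 in DESeq2, so the call rests on the tool. Of 10 other macrophage genes tested, 6 were above 0 with a median log2 difference of 0.14 and 0 reached an unadjusted p under 0.05. Their summed level was 607 to 1590 CPM in the high-OAS2 set and 351 to 1438 CPM in the low-OAS2 set. C1QA, a complement subunit made by macrophages, had a log2 difference of 0.42 (SE 0.33) and the mannose receptor MRC1 one of 0.18 (SE 0.43). In the fit along the OAS2 level over all 18 libraries, described below, 2 of the same 10 genes were above 0. Their median was then -0.16, and MRC1 was at -0.14.

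TRANK1, which encodes a large protein with ankyrin repeats, was at 128, 148 and 183 CPM in the high-OAS2 set and at 78.3, 98.4 and 119 CPM in the low-OAS2 set. ARRDC4, a gene of the arrestin family, was at 113, 132 and 146 CPM in the high-OAS2 set and at 73.0, 87.5 and 108 CPM in the low-OAS2 set. Neither gene overlapped between the sets. Their log2 differences were 0.64 (SE 0.14) and 0.56 (SE 0.12), and both passed in DESeq2 (adjusted p = 0.0324 and 0.0104) but not in edgeR (0.976 for both).

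The antiviral effectors are a list of interferon-related genes. Many of their products act on viral RNA or proteins, but the list also holds others, such as the receptor gene SIGLEC1. Of 27 tested in backfat, 25 were above 0, with a median log2 difference of 0.53 against -0.02 over all genes, and 0 passed in edgeR between the sets. An unadjusted p under 0.05 was reached by 13, all higher. RSAD2, or viperin, which makes a chain-terminating nucleotide, was at 314, 356 and 533 CPM in the high-OAS2 set and at 60.1, 177 and 366 CPM in the low-OAS2 set. The overlap came from pigs Sample_659 and Sample_656, at 366 and 323 CPM. Its log2 difference was 0.94 (SE 0.38; adjusted p = 0.976, edgeR).

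The 3 tested IFIT genes, whose products bind viral RNA ends, had log2 differences of 0.95 (IFIT2, SE 0.34), 0.84 (IFIT1, SE 0.30) and 0.54 (IFIT5, SE 0.25). IFIT1 was at 196, 226 and 438 CPM in the high-OAS2 set and at 66.7, 139 and 230 CPM in the low-OAS2 set. OASL, a relative of OAS2, was lower expressed at 10.4, 14.8 and 20.5 CPM in the high-OAS2 set and at 3.38, 6.55 and 16.0 CPM in the low-OAS2 set (log2 difference 0.92, SE 0.32). In each of these genes the sets overlapped. For IFIT1 and OASL the highest library of the low-OAS2 set lay above the median of the high-OAS2 set. The OAS, MX and IFIT genes have close relatives, and how reads were shared out between them is not stated in the labels used here. At the other end of the list, the interferon-induced GTPase GBP2 differed by 0.28 (SE 0.43), SAMD9 by -0.04 (SE 0.69) and IFI35 by -0.08 (SE 0.30).

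The 13 tested enzymes that attach or remove ISG15, ubiquitin or ADP-ribose were all above 0, with a median log2 difference of 0.48, 5 at an unadjusted p under 0.05 and 0 passed. HERC5, a ligase for the ubiquitin-like protein ISG15, was at 113, 147 and 229 CPM in the high-OAS2 set and at 42.7, 77.9 and 166 CPM in the low-OAS2 set. DTX3L, a ubiquitin ligase that works in a pair with PARP9, was at 69.1, 85.8 and 101 CPM in the high-OAS2 set and at 38.4, 55.2 and 74.9 CPM in the low-OAS2 set. The log2 differences were 0.74 (SE 0.32) for HERC5, 0.63 (SE 0.17) for DTX3L and 0.48 (SE 0.15) for PARP9. USP18, which removes ISG15 and also blocks the interferon receptor, differed by 0.47 (SE 0.33), with the highest value of both sets, 380 CPM, in the low-OAS2 set.

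The sensors were divided. The RIG-I gene RIGI was at 420, 491.2 and 706 CPM in the high-OAS2 set and at 115, 289 and 518 CPM in the low-OAS2 set (log2 difference 0.76, SE 0.32). Its relatives DHX58 and IFIH1 differed by 0.55 (SE 0.28) and 0.48 (SE 0.26). Adaptors and sensors of DNA lay nearer to 0: MAVS differed by 0.04 (SE 0.09), STING1 by -0.05 (SE 0.23), CGAS by 0.01 (SE 0.27) and TLR9 by -0.27 (SE 0.46). Of the 13 sensors tested 8 were above 0, the median log2 difference was 0.04 and 1 reached an unadjusted p under 0.05.

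Between the sets, the signalling genes upstream of the antiviral group had a median near that of all genes. Of 12 signalling genes 9 were above 0, with a median log2 difference of 0.06 and 0 at an unadjusted p under 0.05. STAT2 was at 229, 348 and 460 CPM in the high-OAS2 set and at 172, 286 and 344 CPM in the low-OAS2 set, and the sets overlapped (log2 difference 0.34, SE 0.21). IRF9 differed by 0.26 (SE 0.19) and the kinase gene JAK1 by 0.07 (SE 0.24). IFNGR1, a subunit of the receptor for interferon gamma and the 1 receptor gene that could be tested, differed by 0.13 (SE 0.12).

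Interferon transcripts themselves were at the edge of detection. IFNB1 reached at most 0.301 CPM in the high-OAS2 set and 0.188 CPM in the low-OAS2 set, and IFNE was at 0 CPM throughout the high-OAS2 set and at most 0.231 CPM in the low-OAS2 set. Neither could be tested, and differences in these genes were not detectable at this depth. IRF7, a factor that amplifies the response, and the proteasome activator gene PSME1 were listed at 0 in every library of both tissues and carry no information here.

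Genes that brake the response and genes of antigen presentation had medians near 0. Of 8 brakes, 4 were above 0 with a median log2 difference of 0.00, among them TNFAIP3, an inhibitor of inflammatory signalling, at 0.49 (SE 0.24), and PTPN6, a phosphatase of blood cells, at -0.42 (SE 0.39). Of 12 antigen presentation genes, 2 were above 0 with a median of -0.07. The class II gene SLA-DQB1 was at 178, 424 and 654 CPM in the high-OAS2 set and at 237, 463 and 648 CPM in the low-OAS2 set, so the sets spanned the same range. In both lists 0 genes passed in edgeR and 0 reached an unadjusted p under 0.05. Over the 85 tested genes of the 7 interferon lists together, 61 were above 0, the median was 0.26 and 19 reached an unadjusted p under 0.05.

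**Figure D2:**
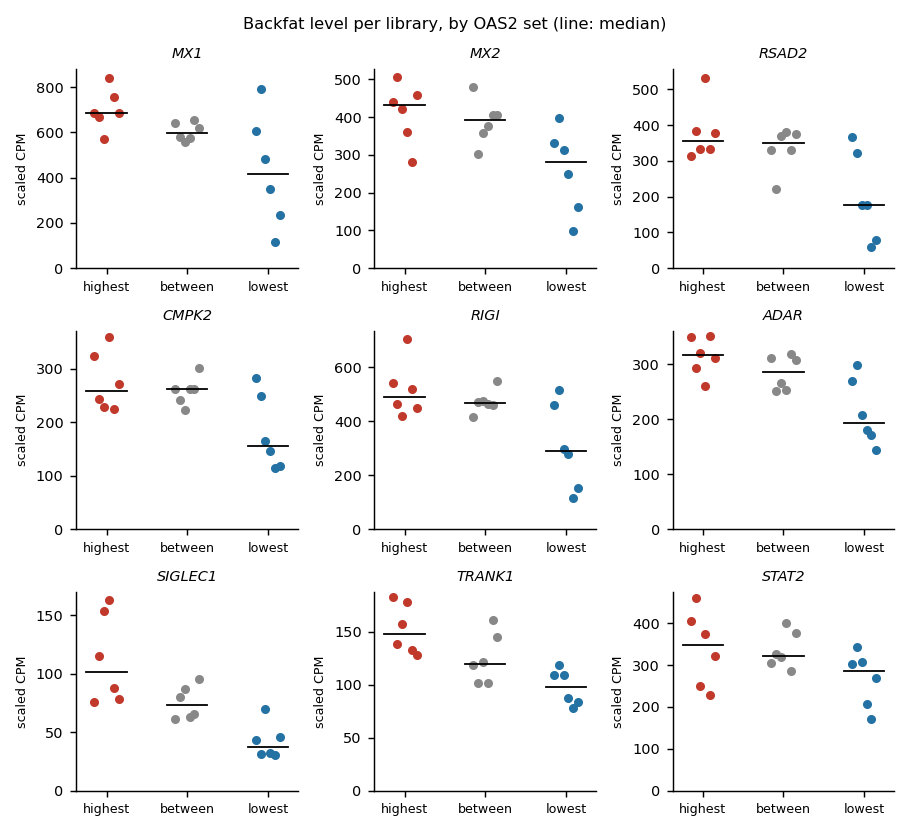
Backfat level of 9 interferon-related genes (vertical axes, CPM divided by the trimmed-mean factor, starting at 0), with 1 point per library and a line at the median of the highest, between and lowest OAS2 sets. Points of the lowest set fan out below the other sets, with 2 libraries near the rest, for RSAD2, CMPK2, RIGI and ADAR; SIGLEC1 and TRANK1 do not overlap between the highest and the lowest set, and STAT2 does overlap.

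Because OAS2 formed a gradient rather than a pair of groups, all 18 backfat libraries were also fitted with log2 OAS2 as a continuous term. Differences from this fit are scaled to 1.34, the gap between the mean log2 OAS2 of the sets, so that they can be read beside the differences above. Here 25 of 13964 genes rose with OAS2 (0.179%) and 1 fell (0.00716%) at an adjusted p under 0.05 in edgeR. Of the 20 rising genes with a symbol, 16 belong to the interferon lists. The interferon lists were chosen with earlier results of these data known, so their share is a description.

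The rising effectors were ADAR, ZBP1, CMPK2, RSAD2, IFI44, IFIT1, IFIT2, IFIT5, MX1 and MX2. ADAR, which edits adenosine in double-stranded RNA, had the smallest adjusted p (0.00823) with a difference of 0.65 (SE 0.09). It was at 260, 316 and 350 CPM in the high-OAS2 set and at 144, 194 and 298 CPM in the low-OAS2 set, and the 6 libraries between spanned 251 to 318 CPM. RSAD2 had the largest difference among the rising genes, 1.33 (SE 0.22; adjusted p = 0.0127). MX1 rose by 1.06 (SE 0.20; adjusted p = 0.0273) and MX2 by 0.90 (SE 0.17; adjusted p = 0.0261). CMPK2, a mitochondrial nucleotide kinase next to RSAD2 in many vertebrate genomes, rose by 0.80 (SE 0.12; adjusted p = 0.0117) and ZBP1, a sensor of left-handed nucleic acid that triggers cell death, by 0.73 (SE 0.11; adjusted p = 0.0117).

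The rising enzymes and sensors were HERC5 at 1.06 (SE 0.18), DTX3L at 0.66 (SE 0.10), PARP9 at 0.49 (SE 0.10), PARP12 at 0.66 (SE 0.13), RIGI at 1.07 (SE 0.17) and DHX58 at 0.86 (SE 0.15). Their adjusted p ranged from 0.0117 for DTX3L to 0.0431 for PARP9. Outside the lists, TRIM34, a gene of the TRIM family, rose by 0.81 (SE 0.15), TRANK1 by 0.56 (SE 0.11) and NFATC4, a calcium-regulated transcription factor, by 0.66 (SE 0.13). TRIM34 and NFATC4 were chosen for naming after their values were seen. SIGLEC1 (1.01, SE 0.23; adjusted p = 0.0796) and OASL (1.04; adjusted p = 0.0828) did not pass in this fit. STAT2 (0.42, SE 0.14) and IRF9 (0.42, SE 0.12) did not pass either.

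This result rests on few pigs. Without pig Sample_889, and likewise without pig Sample_991, 0 genes were called in either direction, and the same held without the 4 pigs with the lowest OAS2 (edgeR). At an unadjusted p under 0.05 there were then 1050, 1180 and 521 genes, against 1458 with all pigs. Without pig Sample_231 or pig Sample_77, 16 of the 25 rising genes were called again. Without pig Sample_731, the library with the most muscle RNA, 60 genes rose and 294 fell. With the backfat ACTA1 level as a covariate 20 rose and 8 fell, and 18 of the 25 were called again. DESeq2 called 76 and 62 genes over all 18 libraries.

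**Figure D3:**
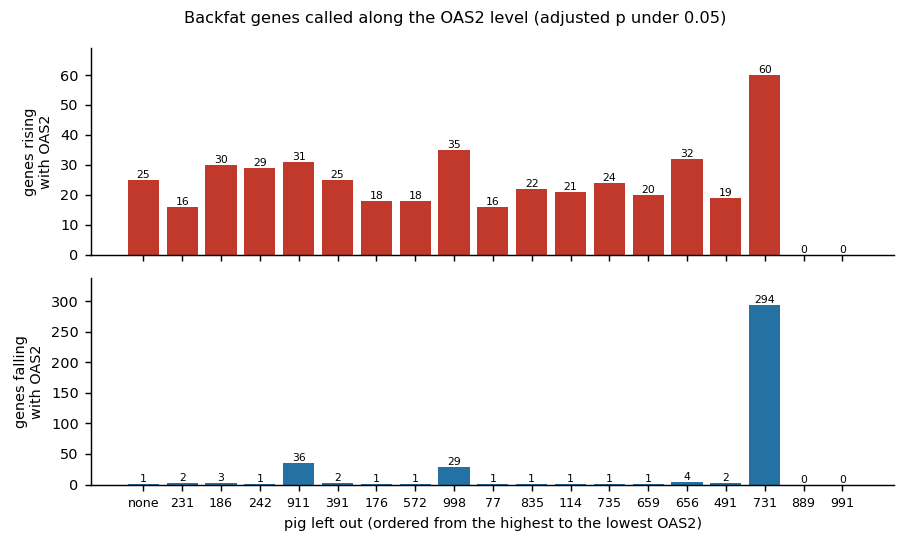
Number of backfat genes called as rising (top) or falling (bottom) with OAS2 at an adjusted p under 0.05 (edgeR, vertical axes in genes), for all 18 pigs (none) and with each pig left out in turn. The counts are 25 and 1 for all pigs, 0 and 0 without pig Sample_889 or pig Sample_991, and 60 and 294 without pig Sample_731.

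The genes most like OAS2 were ranked by Spearman's rho over the 18 backfat libraries among 11366 genes with a mean of at least 5 CPM. This is a description, with no p, since the genes were picked for it. The 8 highest with a symbol were ARRDC4 (rho 0.82), TRANK1 (0.76), DTX3L (0.76), AASDHPPT (0.75), KDM6A (0.75), SIGLEC1 (0.74), INVS (0.71) and KDM1A (0.70). The Pearson r of DTX3L was 0.88 and that of SIGLEC1 0.72, and without pigs Sample_991 and Sample_889, the farthest from the median OAS2, they were 0.72 and 0.67. ADAR had a rho of 0.69 with an r of 0.91, and MX1 a rho of 0.62 with an r of 0.84. KDM6A and KDM1A, which encode histone demethylases, differed little in size between the sets, by 0.26 (SE 0.11) and 0.15 (SE 0.08), and KDM1A spanned 47.05 to 52.0 CPM in the high-OAS2 set and 42.0 to 46.95 CPM in the low-OAS2 set without overlap.

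Lymphocyte and cell cycle genes lay mostly below 0. Of 11 T and NK cell genes 10 were below 0, with a median log2 difference of -1.18, 5 at an unadjusted p under 0.05 and 0 passed in edgeR. CD3D, a subunit of the T cell receptor complex, was at 1.45, 5.73 and 9.92 CPM in the high-OAS2 set and at 3.51, 15.8 and 44.1 CPM in the low-OAS2 set. The high values were those of pigs Sample_991, Sample_491 and Sample_889, at 44.1, 31.9 and 25.3 CPM, and the other 3 pigs of the low-OAS2 set overlapped the high-OAS2 set. The log2 difference of CD3D was -1.68 (SE 0.61; adjusted p = 0.976, edgeR), the lowest of the list. CD2, the 1 T and NK cell gene above 0, differed by 0.42 (adjusted p = 0.976, edgeR).

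MZB1, a chaperone of antibody-secreting cells, was at 1.06, 4.197 and 9.30 CPM in the high-OAS2 set and at 5.97, 24.0 and 79.4 CPM in the low-OAS2 set. Its log2 difference was -2.80 (SE 0.68), with an adjusted p of 0.976 in edgeR and 0.0186 in DESeq2. CD79B, a subunit of the B cell receptor, differed by -1.89 (SE 0.73), while BANK1, another B cell gene, differed by -0.07 (SE 0.41). Summed over 6 B and plasma cell genes the level was 9.63 to 22.6 CPM in the high-OAS2 set and 12.8 to 129 CPM in the low-OAS2 set, so these are rare transcripts.

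All 13 cell cycle genes were below 0, with a median log2 difference of -0.97, 4 at an unadjusted p under 0.05 and 0 passed. TOP2A, the topoisomerase of dividing cells, was at 34.6, 66.3 and 108 CPM in the high-OAS2 set and at 31.5, 117 and 232 CPM in the low-OAS2 set. Pigs Sample_991, Sample_491 and Sample_889 again held the highest values, 232, 186.2 and 179 CPM, while pigs Sample_659, Sample_656 and Sample_731 lay between 31.5 and 55.5 CPM. MCM3, a subunit of the replication helicase, differed by -0.97 (SE 0.43). Summed over the 13 genes the level was 154 to 400 CPM in the high-OAS2 set and 150 to 757 CPM in the low-OAS2 set. The part of these cells in the interferon gene differences was not tested.

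Between the sets, the fat cell's own genes lay on both sides of 0. Of 8 adipocyte identity genes 4 were above 0 (median log2 difference 0.03), and PLIN1 differed by -0.15 (SE 0.21) and CFD, or adipsin, by -0.28 (SE 0.20). Of 10 genes that build fatty acids and triglycerides 3 were above 0 (median -0.20), with FASN, the fatty acid synthase, at 81.4, 297 and 411 CPM in the high-OAS2 set and at 212, 303 and 695 CPM in the low-OAS2 set (-0.55, SE 0.37; -0.30 without pig Sample_991). Of 6 lipolysis genes 5 were above 0 (median 0.09), and the hormone-sensitive lipase gene LIPE differed by 0.19 (SE 0.31). Along the OAS2 gradient over 18 libraries most genes of the 3 lists were below 0. Above 0 were 2 of the 8 adipocyte identity genes (median -0.10), 1 of the 10 synthesis genes (median -0.38) and 2 of the 6 lipolysis genes (median -0.14). In that fit 0 genes of the 3 lists passed in edgeR. Between the sets, 0 genes of these 3 lists reached an unadjusted p under 0.05.

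Collagens and matrix genes were above 0 in 15 of 16 cases, with a median log2 difference of 0.42, 0 at an unadjusted p under 0.05 and 0 passed in edgeR. COL1A2, a chain of the main fibrillar collagen, was at 4775, 11790 and 36570 CPM in the high-OAS2 set and at 3331, 6579 and 14200 CPM in the low-OAS2 set (0.97, SE 0.45). The highest value, that of pig Sample_391, stood far above the other libraries of its set, and without it the difference was 0.47. Along the OAS2 gradient over 18 libraries the median of the same 16 genes was 0.11. Of 8 endothelial genes 4 were above 0 (median 0.08), with KDR, a receptor for the growth factor VEGF, at 0.30 (SE 0.24), and at 0.01 without pig Sample_176.

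Other tissue in the backfat samples was uneven in both sets. Of 9 skin and gland epithelium genes 8 were below 0 (median -0.90), and CPHL1 ranged from 1.60 to 1331 CPM in the high-OAS2 set and from 96.1 to 1786 CPM in the low-OAS2 set. Their summed level was 162 to 2109 CPM in the high-OAS2 set and 224 to 3120 CPM in the low-OAS2 set. Of the 6 muscle genes 2 were above 0 (median -0.02), and 0 were above 0 along the OAS2 gradient over 18 libraries (median -0.75). The value between the sets rests on pig Sample_731. ACTA1 differed by -0.02 (SE 1.33) with this pig and by 3.33 without it, and its median was 4727 CPM in the high-OAS2 set and 410 CPM in the low-OAS2 set, where the other 5 pigs had 84.2 to 1396 CPM. The 2 tested erythroid genes had a median of -0.39 and HBB, a haemoglobin chain, was at 16.1 to 76.4 CPM in the high-OAS2 set and 3.87 to 187 CPM in the low-OAS2 set. Of 3 dendritic cell genes 1 was above 0 (median -0.46). Of 11 glucocorticoid and stress genes 10 were below 0 with a median of -0.18, and ZBTB16, a glucocorticoid-induced transcription factor, differed by -0.76 (SE 0.30). All 5 granulocyte and acute inflammation genes were above 0 (median 0.50), led by the pentraxin PTX3 at 1.43 (SE 0.53), and at 0.69 without pig Sample_231. None of these genes passed in edgeR, and at an unadjusted p under 0.05 there were 3 (KRT8, ZBTB16 and PTX3). The part of each tissue in the OAS2 sets was not tested.

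**Figure D4:**
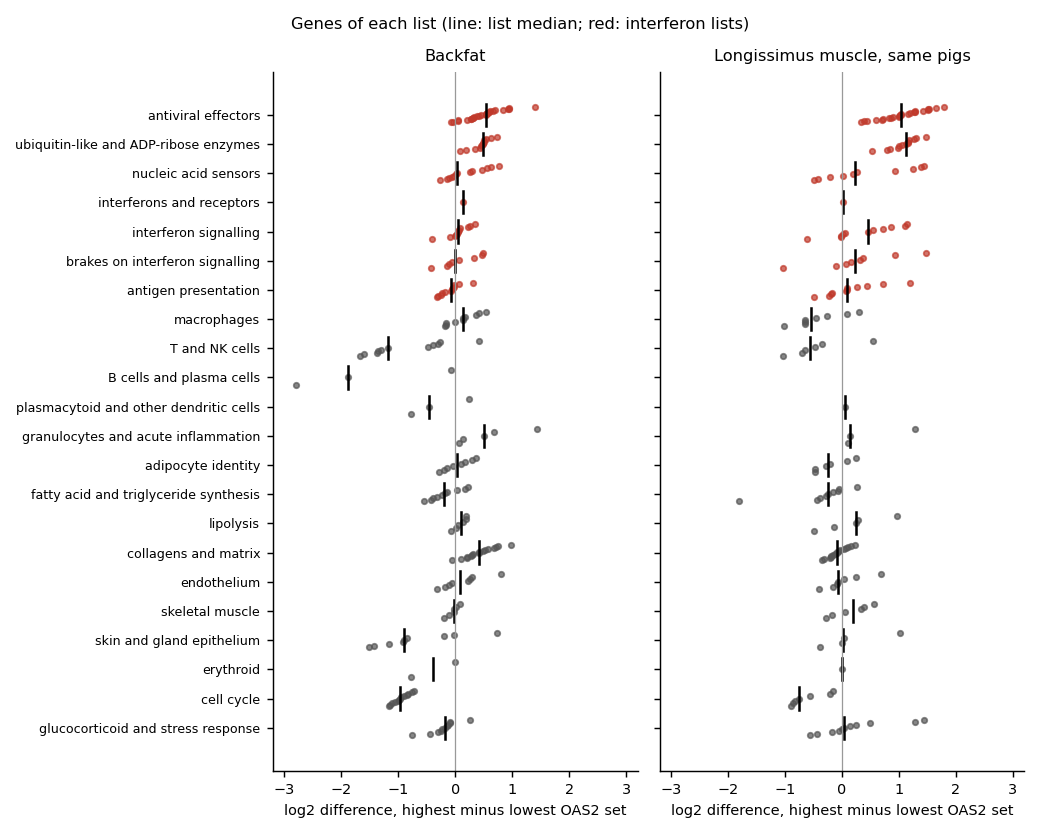
Log2 difference between the highest and the lowest OAS2 set (horizontal axis) for the tested genes of 22 lists, in backfat (left) and in longissimus muscle of the same pigs (right); each point is a gene, the line is the list median and interferon lists are red. Antiviral effectors have medians of 0.53 in backfat and 1.04 in muscle, and cell cycle genes lie below 0 in both tissues.

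The muscle libraries of the same 12 pigs were not used to form the sets, so OAS2 itself could be tested there. That OAS2 and MX1 vary together in both tissues of a pig was known from earlier results of these data, so this is a description of size and not independent support. In muscle, OAS2 was at 117, 134 and 179 CPM in pigs with high backfat OAS2 and at 23.4, 41.0 and 67.3 CPM in pigs with low backfat OAS2. The sets did not overlap, and the pigs between spanned 38.5 to 101 CPM. OAS2 was the 1 gene of 10440 that was higher in edgeR (0.00958%), with a log2 difference of 1.65 (SE 0.24; adjusted p = 0.039), and 0 genes were lower (0.0%). At an unadjusted p under 0.05 there were 585 genes, and DESeq2 called 44 higher (0.421%) and 2 lower (0.0192%).

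An exact two-sided permutation test over the 12 muscle libraries gave p = 0.00217 for OAS2, the smallest value that 924 splits allow, and the same p for MX1. Adjusted over these 2 genes both p stayed at 0.00217. Both genes were picked with earlier results of these data known, so these p are no independent support. MX1 was at 72.0, 93.6 and 139 CPM in pigs with high backfat OAS2 and at 21.0, 28.3 and 60.7 CPM in pigs with low backfat OAS2, again without overlap. Its log2 difference was 1.53 (SE 0.26), with an adjusted p of 0.0889 in edgeR. The OAS2 call was lost without any 1 of 10 of the 12 pigs in turn (adjusted p up to 0.17), while its log2 difference stayed between 1.53 and 1.70 in those fits. Without pig Sample_659, 12 genes were higher, and without pig Sample_889, 4 were higher.

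The antiviral effectors and the modifier enzymes lay above 0 in muscle, as most of them did in backfat. Of 25 tested antiviral effectors 25 were above 0, with a median log2 difference of 1.04 against -0.01 over all muscle genes, 22 at an unadjusted p under 0.05 and 1, OAS2, passed. Of 13 modifier and ADP-ribose enzymes 13 were above 0 (median 1.13), all at an unadjusted p under 0.05. RIGI was at 57.8, 99.6 and 131 CPM in pigs with high backfat OAS2 and at 22.1, 34.7 and 50.5 CPM in pigs with low backfat OAS2 (1.45, SE 0.26; adjusted p = 0.0927, edgeR). The signalling genes and brakes, with medians of 0.06 and 0.00 in backfat, had medians of 0.45 and 0.23 in muscle. Of 11 signalling genes 8 were above 0, with 4 at an unadjusted p under 0.05, and of 8 brakes 6 were above 0. IRF9 was at 81.3, 96.3 and 126 CPM in pigs with high backfat OAS2 and at 27.3, 40.4 and 66.7 CPM in pigs with low backfat OAS2 (1.13, SE 0.20; adjusted p = 0.0889, edgeR). Neither RIGI nor IRF9 overlapped between the sets.

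Over the interferon lists without OAS2, 65 of 77 tested muscle genes were above 0 with a median of 0.79, 44 reached an unadjusted p under 0.05 and 11 did not overlap. Over all muscle genes the sets did not overlap for 27 with every high-OAS2 pig above (0.259%) and for 9 with every such pig below (0.0862%). Of 7 cell cycle genes tested in muscle 0 were above 0 (median -0.76), and TOP2A differed by -0.89. Of 8 macrophage genes 2 were above 0 (median -0.55). Of 6 muscle structure genes 4 were above 0 (median 0.20). When muscle was scaled by library totals alone, the median of all its genes moved to -0.22, and the muscle differences would be read against that value. The difference between the tissues in the size of these changes was not tested.

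Over all 18 pigs, 16 muscle genes rose with backfat OAS2 (0.138%) and 21 fell (0.181%) of 11572 tested in edgeR. IFIT2 had the smallest adjusted p (0.00885), with a difference of 1.66 (SE 0.24), and was at 30.3, 44.8 and 79.1 CPM in pigs with high backfat OAS2 and at 5.84, 15.3 and 32.4 CPM in pigs with low backfat OAS2. Leaving OAS2 aside, 8 genes rose in both tissues, which is 32.0% of the 25 of backfat and 53.3% of the 15 of muscle. They were CMPK2, DHX58, IFI44, IFIT2, MX1, PARP12, RSAD2 and 1 gene without a symbol. Both fits use the OAS2 values of the same pigs. The overlap rests on calls that few pigs decide: the 25 of backfat fell to 0 without pig Sample_889 or pig Sample_991. Of the 16 of muscle, 0 were called again without pig Sample_991, 2 without any 1 of pigs Sample_186, Sample_231, Sample_491, Sample_659, Sample_731 and Sample_77, 3 without pig Sample_176 or Sample_242, 7 without pig Sample_656 and 9 without pig Sample_114. With the backfat ACTA1 level as a covariate 2 of the 16 were called again.

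The genes that fell with OAS2 were not shared: 0 of the 21 of muscle were the 1 of backfat. Those of muscle included the cell division genes NEK2 (-1.71, SE 0.34), ESPL1 (-1.34, SE 0.29) and ANLN (-1.16, SE 0.23) and the matrix gene THBS2 (-1.47, SE 0.27), named after their values were seen. Of the 21, 0 were called again without any 1 of pigs Sample_231, Sample_659, Sample_77 and Sample_991, 2 without pig Sample_242 or Sample_491, 3 without pig Sample_186, 6 or 7 without pig Sample_114, Sample_176, Sample_731 or Sample_889, 12 without pig Sample_656 or Sample_998, and 4 with the ACTA1 covariate. Outside the interferon lists ART3, a gene of the ADP-ribosyltransferase family, rose by 0.88 (SE 0.14; adjusted p = 0.0174). Without pig Sample_991, and without the 4 pigs with the lowest backfat OAS2, 0 muscle genes were called in either direction (edgeR), with 1106 and 820 genes at an unadjusted p under 0.05 against 1631 for all pigs. DESeq2 called 108 higher and 94 lower over 18 pigs.

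**Figure D5:**
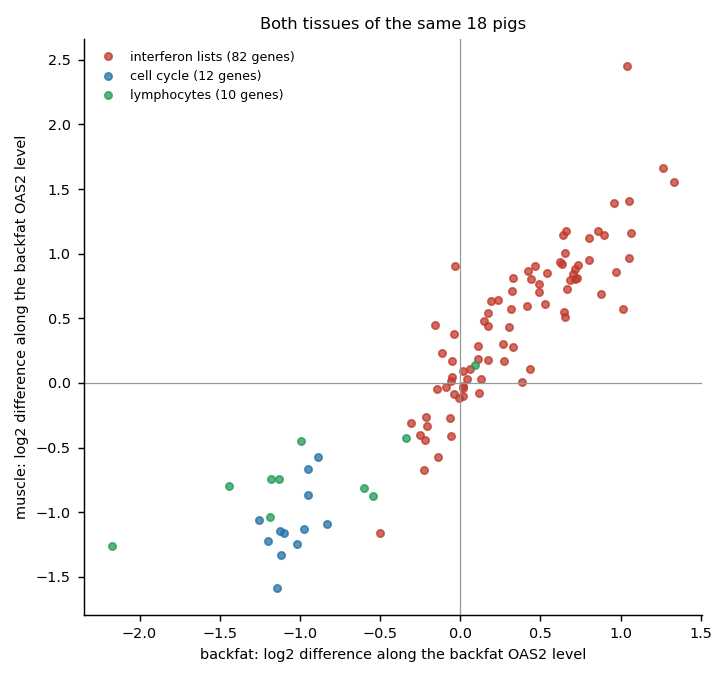
Difference along the backfat OAS2 level (log2, scaled to the gap between the sets) in backfat (horizontal axis) and in muscle (vertical axis) of the same 18 pigs, with 1 point per gene of the interferon, cell cycle and lymphocyte lists. Rising interferon genes such as RSAD2 (1.33 in backfat, 1.56 in muscle) lie at the upper right, and cell cycle genes such as TOP2A (-1.02 in backfat) at the lower left.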

How the data were processed

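RNA of backfat and longissimus muscle of 18 pigs was isolated with a MagMAX kit and sequenced from TruSeq libraries, per the labels' protocols. The authors deposited 1 table of expected counts for 25322 Ensembl pig genes, not normalised. Per the submitters' processing notes the tools were GSNAP and HTSeq, with no version. The genome build was not found in these sources. Those counts come in multiples of 0.5 (35.1% are not whole), for a reason not found in these sources. They were rounded for the tests. Another 5 lines without a gene were kept out of all library totals. Counts in no annotated gene made up 34.5% of a backfat library on average and 19.9% of a muscle library. A symbol was found for 11804 IDs. No strand-keeping step is stated, so an antisense or overlapping partner may share the reads of a gene. Columns left unused numbered 0.

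OAS2 CPM was the count over the sum of gene rows, and trimmed-mean factors were computed over the 18 libraries of a tissue (0.876 to 1.03 in the high-OAS2 and 0.870 to 1.08 in the low-OAS2 set of backfat, 0.793 to 0.958 in muscle of the high-OAS2 and 0.884 to 1.16 in muscle of the low-OAS2 pigs). Genes were tested with edgeR 4.0.16 under R 4.3.3 (quasi-likelihood, robust fit, trimmed-mean factors, default filter on low counts) for each tissue separately, with Benjamini-Hochberg adjustment over all genes tested and a threshold of 0.05. SE was taken as the absolute log2 difference over the root of F. DESeq2 1.42.0, Python 3.11.15, SciPy 1.17.1, pandas 2.3.3, NumPy 2.4.6 and Matplotlib 3.10.9 were also used, and the fits were tested on simulated data. No 2 libraries of a tissue agreed within sampling noise (the smallest chi-square per degree of freedom was 9.76 in backfat and 11.9 in muscle). Pigs are separate animals, and p-values describe the association of a gene with the OAS2 level over these pigs.

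The sets, the 22 gene lists (344 genes, of which 226 matched an ID) and the tests were chosen with earlier results of these data known. The named genes, all with a symbol, are the 4 most abundant tested genes of each interferon list, the 2 of each other list, MX1 and the 8 genes most like OAS2, 63 in all, together with genes past the threshold in either tissue (12 in each direction in backfat, 6 in muscle), which gave OAS2 in muscle. Some genes are not reported here. Other genes were named after their values were seen, to show members of a list or of a count. The alternatives to the fit along the OAS2 level were chosen after seeing the data. No genome was used here, so no sequence or coordinates are given.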

Additional observations from a re-analysis of the deposited data

Results flagged for a closer look

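For the named genes, the highest or lowest pig of each set of 6 was compared with the rest of its set, and a pig was listed when its gap to the nearest other was above the 95% critical value of Dixon for 6 samples. For independent, normally distributed values chance gives such a gap in about 1 of 20 groups. Genes measured in the same pigs are not independent, so that rate may not hold here. Of 230 groups 21 had such a gap, 9 in the high-OAS2 and 12 in the low-OAS2 set. All values are scaled CPM, with the range of the other 5 pigs of the set after each.

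In backfat of the high-OAS2 set, RSAD2 was at 532.5 in pig Sample_911 (others 314 to 384), KDR at 497.1 in pig Sample_176 (171 to 272), PTX3 at 431.9 in pig Sample_231 (27.4 to 143) and COL1A2 at 36570 in pig Sample_391 (4775 to 14340). In backfat of the low-OAS2 set, pig Sample_731 had ACTA1 at 27950 (84.2 to 1396), MYL1, a muscle myosin light chain, at 5996 (31.3 to 320) and the transcription factor gene IRF1 at 106.1 (205 to 261). Pig Sample_491 had TNFAIP3 at 75.75 (52.5 to 61.0) and pig Sample_889 had the deubiquitinase gene OTUD5 at 72.8 (55.3 to 61.8).

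In muscle of pigs with high backfat OAS2, pig Sample_231 had USP18 at 83.2 (35.4 to 52.7), IFI44L at 150.7 (58.1 to 82.6) and KDR at 31.62 (57.5 to 63.0). Pig Sample_186 had ARRDC4 at 36.8 (14.9 to 20.3) and pig Sample_911 the endoplasmic reticulum chaperone gene HSPA5 at 182.7 (113 to 137). In muscle of pigs with low backfat OAS2, pig Sample_889 accounted for 6 of the 7 listed values: CCL2, a chemokine for monocytes, at 52.71 (0.793 to 11.7), COL1A2 at 1761 (225 to 727), FASN at 68.93 (21.4 to 26.7), PTX3 at 25.52 (5.52 to 12.2), TRANK1 at 14.84 (7.34 to 9.67) and KDM1A at 27.46 (36.4 to 39.6). Pig Sample_491 had the heat shock gene HSP90AA1 at 582.7 (348 to 419).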

How the results depend on the processing

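No paired analysis was possible because the pair of each pig is not in the labels used here, and no pig number occurs in both sets. Ranking on OAS2 scaled by trimmed-mean factors gave the same sets. Between the backfat sets the counts stayed at 0 higher and 0 lower in edgeR under library totals alone, no filter, sets of 4 or 9, the ACTA1 covariate and without each pig in turn, while DESeq2 called 5 and 1 and the continuous OAS2 term 25 and 1. Between the muscle sets, against 1 higher and 0 lower, 9 against 9 pigs, the ACTA1 covariate and library totals alone gave 0 higher, DESeq2 44 and 2 and the continuous term 16 and 21, and leaving out a pig gave 0 to 12 higher. Sets of 4 pigs also gave 1 higher, as did leaving out pig Sample_656, but OAS2 lost its call in both fits. Over 18 backfat libraries (25 and 1), DESeq2 gave 76 and 62, the ACTA1 covariate 8 lower, no filter 3 lower, leaving out the 4 lowest pigs 0 and 0, and leaving out 1 pig 0 to 60 higher and 0 to 294 lower, with 36 lower without pig Sample_911 and 29 without pig Sample_998. Over 18 pigs in muscle (16 and 21), DESeq2 gave 108 and 94, the ACTA1 covariate 2 and 5, library totals alone 34 lower, leaving out the 4 lowest pigs 0 and 0, and leaving out 1 pig 0 to 32 higher and 0 to 67 lower, both highest without pig Sample_911. The cause of these shifts was not tested. Of the 119 tested values of named genes in the 2 tissues, that of OAS2 in muscle was the only 1 called. It kept its sign under every setting but lost its call in most of them. Of the uncalled values, 1 to 14 changed sign, depending on the setting. Library depth limits the rare transcripts, such as those of interferons and lymphocytes.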
